A study of Mus musculus with 12 samples.

Results

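The ErbB receptors and the neuregulins were followed as 1 family of 8 genes, among the 55376 gene symbols of an RNA-Seq count table. They comprise the 4 receptors Egfr, Erbb2, Erbb3 and Erbb4 and the 4 ligand genes Nrg1, Nrg2, Nrg3 and Nrg4, and were selected by symbol. The family was picked because Erbb3 was lower in the mutant mice. The values of Erbb3 in the genotypes are therefore a description and carry no test, and the other members were tested in fits over all genes. All 8 members were present in the table, and 6 of them passed the filter of at least 1 CPM (a count scaled to library size) in at least 4 samples, which 17716 genes passed. Nrg3 and Nrg4 did not pass it and are given by their counts.

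The cells were O1+ CD45- oligodendrocytes sorted from brains of C57BL/6 mice at postnatal day 40. O1 is a surface epitope of maturing and mature oligodendrocytes, and CD45 is carried by blood-derived cells and microglia. The 3 genotypes were WT, Cnp-Cre Jab1fl/fl, in which Jab1 is deleted, and Cnp-Cre Jab1fl/fl p21CIP1-/- (double mutants), which also lack p21CIP1, with 4 samples each and 2 brains pooled in every sample. Cre follows the Cnp promoter, active in late precursors and oligodendrocytes, whereas the p21CIP1 null allele is carried by every cell of the animal, and whether WT mice carried Cre or floxed alleles is not given in the sources used here. Cnp-Cre Jab1fl/fl was compared with WT for what loss of Jab1 does to these cells, and double mutants with both for what additional loss of p21CIP1 does. Each pair of these comparisons shares 4 samples, so their values are not independent.

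Neuregulins and the other ligands with an EGF-like domain bind ErbB receptors, which then pair and phosphorylate one another on tyrosines. Erbb3 binds neuregulins but has a very weak kinase and signals through a partner, and Erbb2 has no known ligand of its own and is the usual partner. Erbb4 binds neuregulins and has an active kinase, whereas Egfr responds to EGF, TGF-alpha and related ligands. In the nervous system, axonal neuregulin 1 acting through Erbb2 and Erbb3 is best known for its control of Schwann cells and peripheral myelin, and ErbB signaling has also been linked to the development of oligodendrocytes.

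Libraries held between 61485556 and 153495112 counts, with a median of 103095817. Cops5, which encodes JAB1, was at 102.9 ± 39.7 CPM in WT, 66.9 ± 18.0 CPM in Cnp-Cre Jab1fl/fl and 58.6 ± 21.5 CPM in double mutants (mean ± SD, n = 4), and the ranges overlapped. Counts covered the whole gene, and the deleted part was not measured on its own. Cdkn1a, which encodes p21CIP1, was at 41.6 ± 31.4 CPM in WT, 452.3 ± 123.5 CPM in Cnp-Cre Jab1fl/fl and 88.4 ± 17.9 CPM in double mutants (SD, n = 4), so the double mutants still held counts assigned to that gene. The sort was checked against fixed marker genes, none of which was at 0 in all samples of a genotype. Summed markers of mature oligodendrocytes ranged from 45138.6 to 105683.1 CPM in WT, from 8998.8 to 35143.6 CPM in Cnp-Cre Jab1fl/fl and from 16874.9 to 52714.4 CPM in double mutants. Summed astrocyte markers, from 3567.5 to 13158.8 CPM over all samples, were also abundant. Summed microglial markers lay between 91.9 and 254.4 CPM in WT and between 886.6 and 2280.1 CPM in Cnp-Cre Jab1fl/fl. In double mutants they were at 337.4, 774.8, 16060.9 and 1740.5 CPM in replicates 1, 2, 3 and 5. Each of these lay above the WT range, and replicate 3 stood apart. In these bulk samples, fewer cells of a type and less RNA per cell cannot be told apart.

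Of the receptors, Erbb3 was the most abundant in WT cells and showed the largest difference in mutants. In WT samples Erbb3 was at 54.1, 155.4, 101.2 and 56.2 CPM in replicates 1, 3, 5 and 6. In Cnp-Cre Jab1fl/fl samples it was at 10.6, 13.0, 9.11 and 10.5 CPM in replicates 1 to 4. All 4 mutant samples thus lay below the lowest WT sample, as they did for 7.24% of all genes tested. The mutant samples were close to one another, whereas the WT samples were widely spread. Erbb3 fell from 91.7 ± 47.7 to 10.8 ± 1.62 CPM (SD, n = 4 each), a fitted log2 fold change of -3.09 with a standard error of 0.4, or 8.51-fold lower. The difference was -2.73 without WT replicate 3, the sample with the most Erbb3.

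In double mutants Erbb3 was at 51.7, 20.3, 21.9 and 9.45 CPM in replicates 1, 2, 3 and 5. Replicate 1 was nearly as high as the lowest WT sample, and replicate 5 was within the range of Cnp-Cre Jab1fl/fl. The mean of 25.9 ± 18.1 CPM (SD, n = 4) was 3.59-fold below WT, with a log2 fold change of -1.84 and a standard error of 0.53, and all 4 double mutants lay below every WT sample, as they did for 3.58% of all genes tested. Against Cnp-Cre Jab1fl/fl it was 2.4-fold higher, with a log2 fold change of 1.26 and a standard error of 0.51, and 3 of 4 double mutants lay above every Cnp-Cre Jab1fl/fl sample. Without double mutant replicate 1 the log2 fold change was -2.42 against WT and 0.68 against Cnp-Cre Jab1fl/fl. Without double mutant replicate 3, the sample with the most microglial markers, these values were -1.73 and 1.37.

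**Figure D1:**
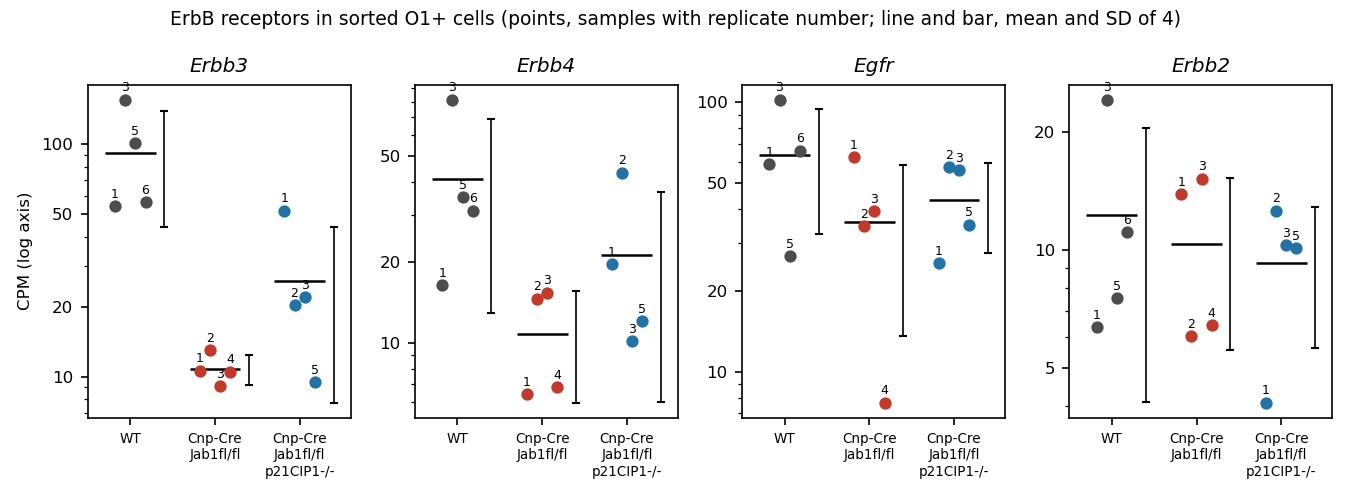
CPM of the 4 ErbB receptors on log axes, for 12 samples of 3 genotypes. Points are samples with their replicate number, and the horizontal line and vertical bar are the mean and SD of 4 samples. Erbb3 lies between 9.11 and 13.0 CPM in Cnp-Cre Jab1fl/fl and at 54.1 CPM or more in WT, and WT replicate 3 is the highest sample for each receptor.

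Erbb4 was the other receptor that fell in Cnp-Cre Jab1fl/fl cells. It was at 16.4, 81.3, 35.0 and 31.2 CPM in WT replicates 1, 3, 5 and 6, and at 6.42, 14.6, 15.4 and 6.83 CPM in Cnp-Cre Jab1fl/fl replicates 1 to 4. The genotypes did not overlap, but WT replicate 1 was only just above the highest mutant. The mean was 3.8-fold lower, at 41.0 ± 28.0 CPM in WT and 10.8 ± 4.83 CPM in Cnp-Cre Jab1fl/fl (SD, n = 4), with a log2 fold change of -1.92, a standard error of 0.52 and an adjusted p of 0.0467 in edgeR's quasi-likelihood test. In this comparison 7.64% of all genes tested passed the threshold of 0.05, 2.46% as lower and 5.19% as higher, and 7.24% had mutant values all below the WT values.

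The call on Erbb4 rested on narrow margins. It was lost when WT replicate 3, 5 or 6 or Cnp-Cre Jab1fl/fl replicate 1, 3 or 4 was left out, with an adjusted p of up to 0.136 and a log2 fold change of -1.37 without WT replicate 3. It held without WT replicate 1 and without Cnp-Cre Jab1fl/fl replicate 2, and the log2 fold change lay between -2.19 and -1.37 over these 8 fits. With no sample left out, the adjusted p was 0.00288 by DESeq2 and 0.123 by limma-voom. In a two-sided exact permutation test of the mean log2(CPM + 1), Erbb4 had p = 0.0286, the smallest that 70 relabelings of 4 against 4 allow, and an adjusted p of 0.429 over 15 tests of members, which 1 member alone could not have brought under the threshold.

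In double mutants Erbb4 was at 19.7, 43.3, 10.1 and 12 CPM in replicates 1, 2, 3 and 5. Replicate 2 was higher than 3 of the 4 WT samples, and replicates 3 and 5 were within the range of Cnp-Cre Jab1fl/fl. The mean of 21.3 ± 15.3 CPM (SD, n = 4) gave a log2 fold change of -0.96 against WT, with a standard error of 0.57 and an adjusted p of 0.532. Against Cnp-Cre Jab1fl/fl it gave 0.98, with a standard error of 0.57 and an adjusted p of 0.996, both in edgeR's test. Without double mutant replicate 2 these values were -1.54 and 0.37, and without WT replicate 3 the first was -0.39. The Erbb4 level of double mutants was therefore not told apart from either of the other genotypes.

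Egfr, the receptor of EGF and TGF-alpha, was at 58.9, 102.2, 26.8 and 66.1 CPM in WT replicates 1, 3, 5 and 6. It was at 62.6, 34.7, 39.3 and 7.68 CPM in Cnp-Cre Jab1fl/fl replicates 1 to 4, and at 25.3, 57.5, 56.1 and 35.1 CPM in double mutant replicates 1, 2, 3 and 5. The 3 ranges overlapped, and samples of 1 genotype differed more than the genotype means of 63.5 ± 31.0, 36.1 ± 22.5 and 43.5 ± 15.9 CPM (SD, n = 4 each). The log2 fold change was -0.82 in Cnp-Cre Jab1fl/fl and -0.56 in double mutants against WT, with standard errors of 0.56 and 0.42 and adjusted p of 0.435 and 0.631 in edgeR's test. Between the mutants it was 0.27 with a standard error of 0.54.

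Erbb2, the partner without a ligand, was the receptor of lowest mean CPM in each genotype, though not in every mutant sample. It was at 6.35, 24.2, 7.53 and 11.1 CPM in WT replicates 1, 3, 5 and 6 and at 13.9, 6.03, 15.2 and 6.43 CPM in Cnp-Cre Jab1fl/fl replicates 1 to 4. In double mutant replicates 1, 2, 3 and 5 it was at 4.08, 12.6, 10.3 and 10.1 CPM. The ranges overlapped throughout. The log2 fold change was -0.25 ± 0.57 in Cnp-Cre Jab1fl/fl and -0.41 ± 0.56 in double mutants against WT (± standard error), with adjusted p of 0.85 and 0.807 in edgeR's test, and the sign of both turned without WT replicate 3, to 0.3 and 0.14.

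**Figure D2:**
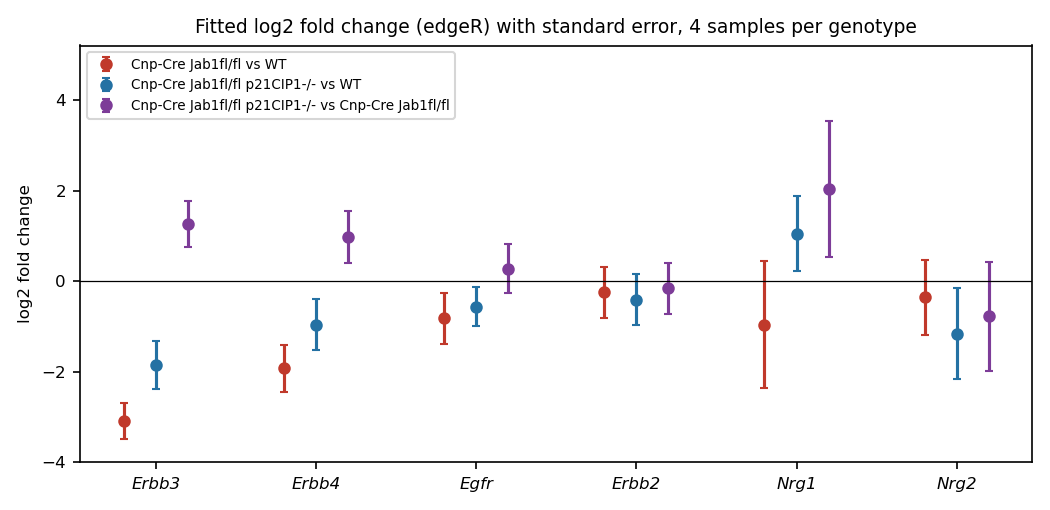
Fitted log2 fold changes of the 6 members tested, on the vertical axis, in 3 comparisons shown by color. Points are estimates of edgeR with standard errors as bars, from 4 samples per genotype. Erbb3 and Erbb4 lie at -3.09 and -1.92 in Cnp-Cre Jab1fl/fl against WT, and the bars of Nrg1 and Nrg2 are the longest.

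Because the receptors differ in length, their levels were compared with one another per kilobase of exon, as RPKM. In WT cells Erbb3 was at 15.2 ± 7.93 RPKM, ahead of Egfr at 5.8 ± 2.83, Erbb4 at 3.39 ± 2.32 and Erbb2 at 2.45 ± 1.63 RPKM (SD, n = 4). Erbb3 exceeded Egfr in 4 of 4 WT samples and Egfr exceeded Erbb4 in 3 of 4, though the ranges of each of these neighbors overlapped. In Cnp-Cre Jab1fl/fl cells Egfr led with 3.29 ± 2.06 RPKM, followed by Erbb2 at 2.07 ± 0.963, Erbb3 at 1.79 ± 0.269 and Erbb4 at 0.893 ± 0.4 RPKM. There, Erbb2 exceeded Erbb3 in 2 of 4 samples, and the neighbors again overlapped.

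Summed over the 4 receptors, the level was 26.9 ± 13.5 RPKM in WT, 8.05 ± 2.8 RPKM in Cnp-Cre Jab1fl/fl and 11.9 ± 3.01 RPKM in double mutants (SD, n = 4). The share of Erbb3 in that sum was 52.9%, 55.3%, 71.1% and 46.3% in WT replicates 1, 3, 5 and 6 and 16.3%, 27.9%, 16.1% and 40.5% in Cnp-Cre Jab1fl/fl replicates 1 to 4. In double mutants it was 64.4% in replicate 1, as in WT, and 22.9%, 31.3% and 20.2% in replicates 2, 3 and 5. The share of Erbb2 was 8.79 ± 2.24% in WT, 25.9 ± 7.36% in Cnp-Cre Jab1fl/fl and 16.7 ± 8.15% in double mutants (SD, n = 4). These shares move with Erbb3 and were not tested. Between the remaining receptors, the mean log2 ratio of Erbb2 to Erbb4 was 1.2 in Cnp-Cre Jab1fl/fl and -0.44 in WT, a difference of 1.64 with p = 0.0286 in a two-sided exact permutation test and an adjusted p of 0.257 over 9 tests of ratios. As 0.0286 is the smallest p of this design, 1 ratio alone could not have passed after adjustment.

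**Figure D3:**
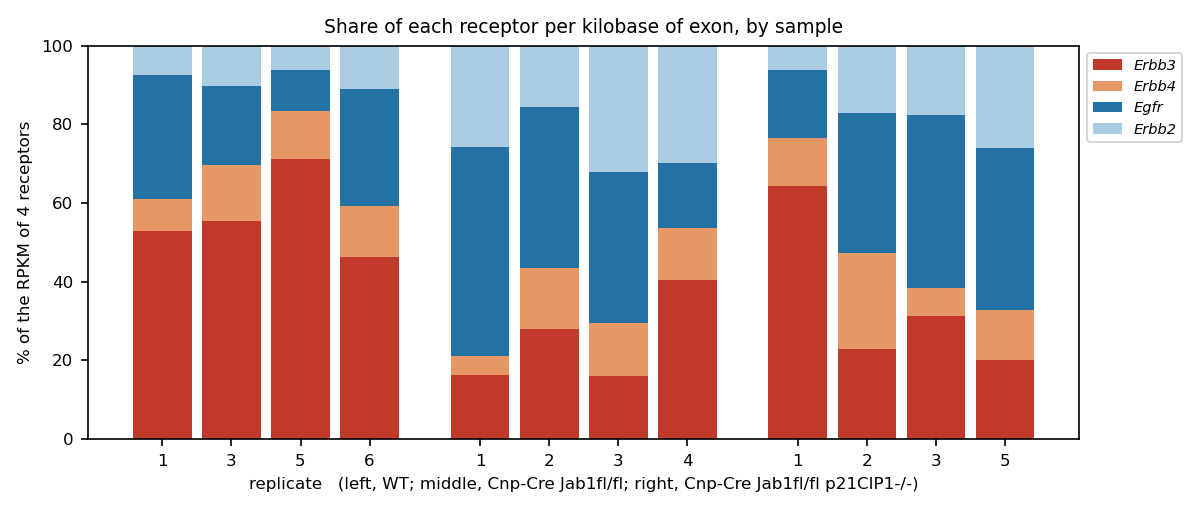
Share of each receptor in the summed RPKM of the 4 receptors, in percent, with 1 bar per sample and the genotypes from left to right. Erbb3 takes at least 46.3% in each WT bar and at most 40.5% in each Cnp-Cre Jab1fl/fl bar, and reaches 64.4% in double mutant replicate 1.

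Neuregulins were low in all sorted samples. Nrg1, the ligand that axons present to glia, was at 1.77, 2.31, 1.25 and 2.39 CPM in WT replicates 1, 3, 5 and 6. In Cnp-Cre Jab1fl/fl it was at 0.892, 3.01, 0.0442 and 0.0134 CPM in replicates 1 to 4, of which replicates 3 and 4 held only 3 and 1 counts. In double mutants it was at 3.56, 8.9, 2.96 and 0.743 CPM in replicates 1, 2, 3 and 5. Thus 3 of 4 Cnp-Cre Jab1fl/fl samples lay below all WT samples and the remaining one above them, and 3 of 4 double mutants lay above the WT samples.

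The fitted log2 fold change of Nrg1 was -0.96 ± 1.4 in Cnp-Cre Jab1fl/fl and 1.05 ± 0.83 in double mutants against WT, and 2.03 ± 1.5 between the mutants (± standard error). None passed the threshold in edgeR's test, with adjusted p of 0.742, 0.644 and 0.996. Without Cnp-Cre Jab1fl/fl replicate 2 the first became -2.62 and the last 3.67, and without double mutant replicate 2 the second became 0.33. The exons of Nrg1 share 442 bases with Gm26578, a lincRNA on the opposite strand, and whether reads were counted by strand is not given in the sources used here.

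Nrg2, a related ligand, was at 3.53, 6.35, 1.74 and 2.77 CPM in WT replicates 1, 3, 5 and 6 and at 1.32, 1.11, 4.93 and 3.83 CPM in Cnp-Cre Jab1fl/fl replicates 1 to 4. In double mutants replicate 1 was at 4.89 CPM, and replicates 2, 3 and 5 were at 0.253, 0.468 and 0.921 CPM, below every sample of the other genotypes. The log2 fold change was -0.36 ± 0.82 in Cnp-Cre Jab1fl/fl and -1.16 ± 1.0 in double mutants against WT, with adjusted p of 0.846 and 0.686 in edgeR's test, and -0.78 ± 1.2 between the mutants. Without double mutant replicate 1 the last became -2.34, and that against WT -2.72.

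Nrg3 and Nrg4 stayed below 1 CPM in all 12 samples. Nrg3 had 26 counts in WT replicate 5, 71 in Cnp-Cre Jab1fl/fl replicate 2, 9 in double mutant replicate 2, 1 in double mutant replicate 3 and 0 in each of the other samples, where a count of 0 allows up to 3. Nrg4, an EGF-like ligand of Erbb4, had 0, 112, 19 and 71 counts in WT replicates 1, 3, 5 and 6, 44 counts in Cnp-Cre Jab1fl/fl replicate 3 and 0 in replicates 1, 2 and 4. In double mutants Nrg4 had 86 and 81 counts in replicates 1 and 2 and 0 in replicates 3 and 5. Every genotype thus held samples with 0 counts and samples with more, and neither gene was tested. The exons of Nrg4 share 166 bases with Fbxo22 on the opposite strand.

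**Figure D4:**
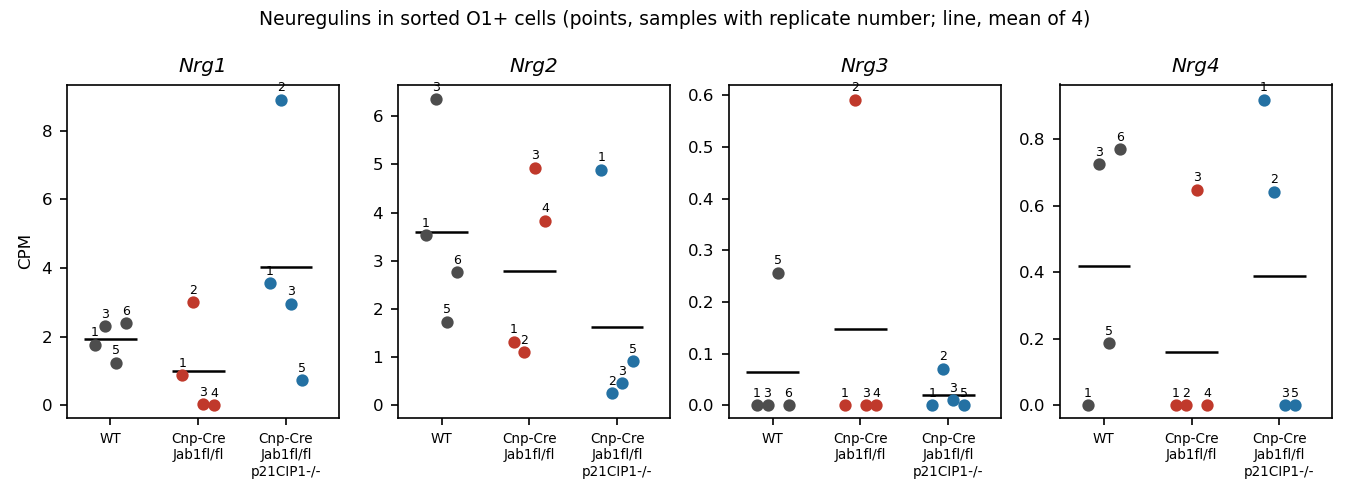
CPM of the 4 neuregulin genes on linear axes, with 1 point per sample, its replicate number and a line at the mean of 4. Nrg1 reaches 8.9 CPM in double mutant replicate 2, 3 double mutants lie below all other samples for Nrg2, and Nrg3 and Nrg4 stay below 1 CPM.

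Per kilobase of exon, Nrg2 at 1.18 ± 0.647 RPKM was the highest neuregulin in WT cells and was below Erbb2 in 4 of 4 samples. It was above Nrg1, at 0.245 ± 0.0676 RPKM, in 4 of 4 samples with no overlap (SD, n = 4). Nrg4 at 0.19 ± 0.174 RPKM and Nrg3 at 0.0159 ± 0.0319 RPKM followed, and Nrg1 exceeded Nrg4 in only 2 of 4 samples.

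The levels of the members were set beside the marker genes of the cell types that the sort could hold. Over all genes tested, 2.46% passed the threshold as lower and 5.19% as higher in Cnp-Cre Jab1fl/fl against WT. In that comparison 7 of 10 markers of mature oligodendrocytes fell, with a median log2 fold change of -2.23 and a range from -4.29 to 0.27. Erbb3 at -3.09 lay within that range. Opalin, a mature oligodendrocyte membrane protein, fell by 4.29 and Cnp, whose promoter drives Cre, fell by 3.27 on the log2 scale, with adjusted p of 0.00909 and 0.0105 in edgeR's test, whereas Mbp had 0.27 and an adjusted p of 0.811. The effect of the Cre allele on Cnp itself was not tested. Of 8 markers of precursors, Sox10, a transcription factor of the whole lineage, fell by 2.72 and Cspg4, the proteoglycan NG2, rose by 1.72. Their adjusted p were 0.0271 and 0.049 in edgeR's test, and the median of the list was 0.74. The summed CPM of the list was lower, however, at 1077.6 ± 365.7 in WT and 611.0 ± 106.5 in Cnp-Cre Jab1fl/fl (SD, n = 4). Which cells the Cspg4 counts came from was not tested. Of 7 premyelinating markers 1 rose, Bmp4 with 2.03 and an adjusted p of 0.0334, and the median was 0.38. Markers of other cells rose beside them, with 10 of 10 for microglia, 5 of 9 for endothelial cells and 4 of 7 for mural cells, whereas 0 of 10 astrocyte and 0 of 10 neuron markers passed the threshold in edgeR's test (3 of each at an unadjusted p under 0.05, 1 of each by DESeq2, and 1 and 0 by limma-voom). In the double mutants against WT 0.192% of all genes tested passed, and 0 of 10 mature oligodendrocyte markers did (6 unadjusted, 5 by DESeq2, 2 by limma-voom). The median of these markers was -1.38, beside the -1.84 of Erbb3. Of the lists that rose in Cnp-Cre Jab1fl/fl, 0 of 10 microglial, 0 of 9 endothelial and 0 of 7 mural markers passed there in edgeR's test. Their medians were 4.64, 1.91 and 1.94. At an unadjusted p under 0.05 there were 10, 8 and 3 genes, against 6, 6 and 3 by DESeq2 and 0 of each by limma-voom. The part of these cell types in the receptor differences was not tested.

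Within genotypes, Egfr varied together with astrocyte markers. After the genotype means were removed, Egfr and the mean log2(CPM + 1) of the 10 astrocyte markers had a Pearson r of 0.89 over 12 samples (p = 0.000217, adjusted p = 0.0104) and a Spearman rho of 0.93 (p = 0.000289, adjusted p = 0.0139), in two-sided exact permutation tests over 13824 orders within genotypes and with adjustment over 48 relations. The r was 0.99 in WT, 0.99 in Cnp-Cre Jab1fl/fl and 0.97 in double mutants (n = 4 each), and 0.9 without the 2 samples farthest from the median. For example, Cnp-Cre Jab1fl/fl replicate 4 was the lowest of all samples for both Egfr, at 7.68 CPM, and the summed astrocyte markers, at 3567.5 CPM, and WT replicate 3 was the highest for both, at 102.2 and 13158.8 CPM. Both measures come from the same libraries and share their depth and composition.

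Egfr was the only member of the 6 whose relation to one of the 8 marker lists passed the threshold after adjustment. Erbb2 had an r of 0.78 with astrocyte markers (rho 0.79, p = 0.0114 and 0.00723) and -0.76 with mature oligodendrocyte markers (rho -0.8, p = 0.0076 and 0.00803), each with an adjusted p of 0.182 for r and 0.128 for rho in the exact permutation tests, and without the 2 farthest samples r was 0.66 and -0.63. Erbb3 had an r of 0.56 with mature oligodendrocyte markers (p = 0.0728, adjusted p = 0.437) and a rho of 0.43 (p = 0.166, adjusted p = 0.612, exact permutation), and 0.29 without the 2 farthest samples. Its r was 0.99 in Cnp-Cre Jab1fl/fl and 0.98 in double mutants but -0.06 in WT (n = 4 each), where replicate 3 had the most Erbb3 and the lowest summed marker level. With premyelinating markers Erbb3 had an r of 0.42 (p = 0.043, adjusted p = 0.437) and a rho of 0.64 (p = 0.023, adjusted p = 0.276, exact permutation), and an r of 0.76 without the 2 farthest samples. With neuron markers it had an r of -0.74 (p = 0.0482, adjusted p = 0.437) and a rho of -0.57 (p = 0.12, adjusted p = 0.592, exact permutation), and an r of -0.39 without the 2 farthest samples. Nrg1 had an r of -0.25 with neuron markers (p = 0.581, adjusted p = 0.846) and a rho of -0.077 (p = 0.833, adjusted p = 0.908, exact permutation).

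**Figure D5:**
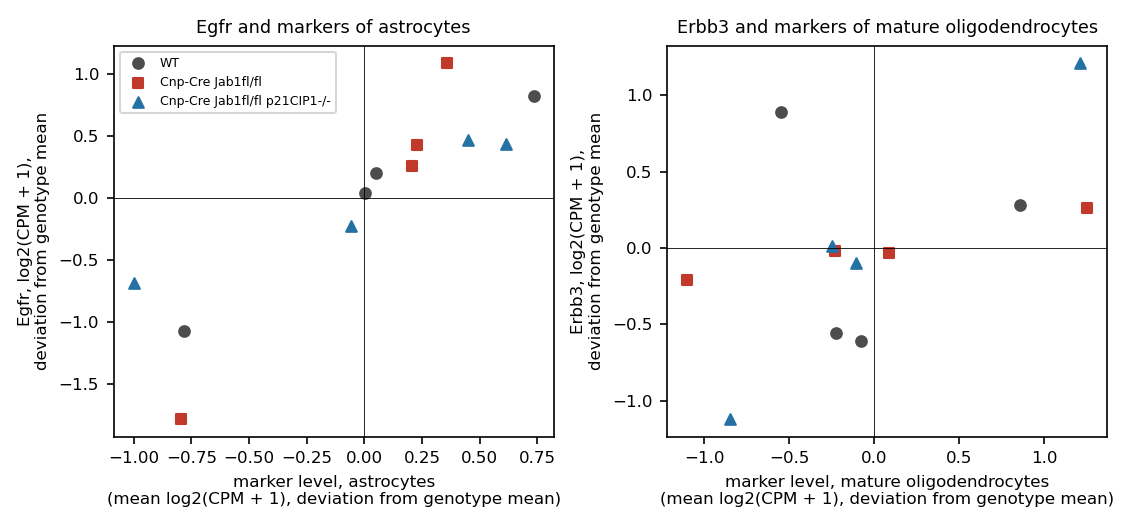
Deviation of Egfr (left) and Erbb3 (right) from the genotype mean, in log2(CPM + 1), against the deviation of the mean marker level of astrocytes and of mature oligodendrocytes. Each point is 1 of 12 samples, with marker shape and color for genotype. Egfr follows the astrocyte markers in every genotype (r = 0.89 overall), and Erbb3 has an r of 0.99 and 0.98 with the oligodendrocyte markers in the mutants and -0.06 in WT.

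The other ligands with an EGF-like domain were examined next, since they share these receptors. Of 7 such genes 4 passed the filter (Tgfa, Hbegf, Egf and Btc), and 0 passed the threshold in Cnp-Cre Jab1fl/fl against WT in edgeR's test, against 1 at an unadjusted p under 0.05, 1 by DESeq2 and 0 by limma-voom. That gene was Tgfa, which encodes a ligand of Egfr and is named here after its values were seen. It was at 83.1 ± 49.1 CPM in WT and 31.3 ± 5.17 CPM in Cnp-Cre Jab1fl/fl (SD, n = 4), with a log2 fold change of -1.41, a standard error of 0.42 and an adjusted p of 0.0658 in edgeR's test. All its mutant values lay below the WT values, as they did for 7.24% of all genes tested. Tgfa was at 58.3 ± 29.0 CPM in double mutants.

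The enzymes that cut neuregulins and their receptors include the beta-secretases Bace1 and Bace2, ADAM proteases and the subunits of gamma-secretase. Of these 11 genes, 0 passed the threshold in Cnp-Cre Jab1fl/fl against WT in edgeR's test, against 3 unadjusted, 1 by DESeq2 and 0 by limma-voom, and the median log2 fold change was -0.39 beside 0.024 over all genes tested. The gene called by DESeq2 was Bace2, named here after its values were seen. Bace2 was at 4.94 ± 1.82 CPM in WT, 23.8 ± 20.8 CPM in Cnp-Cre Jab1fl/fl and 31.9 ± 17.4 CPM in double mutants (SD, n = 4), with log2 fold changes of 2.27 and 2.67 against WT. Its adjusted p in edgeR's test was 0.141 in Cnp-Cre Jab1fl/fl and 0.0786 in double mutants, against 0.027 and 1.23e-05 by DESeq2 and 0.442 and 0.0426 by limma-voom. Between the mutants the log2 fold change of Bace2 was 0.42.

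Downstream of the receptors, 2 of 38 genes of signal transduction passed the threshold in Cnp-Cre Jab1fl/fl against WT, where 7.64% of all genes did, so the list held no more calls than the background. Gab1, a docking protein that carries signals from receptor tyrosine kinases, fell from 221.3 ± 135.8 to 60.9 ± 24.2 CPM (SD, n = 4 each), with a log2 fold change of -1.86 and an adjusted p of 0.0323 in edgeR's test. Plcg2, a phospholipase C typical of blood and immune cells, rose from 1.66 ± 1.55 to 14.7 ± 7.02 CPM, with a log2 fold change of 3.15 and an adjusted p of 0.0475, in libraries in which the microglial markers also rose. Which cells the Plcg2 counts came from was not tested. The median of the list was -0.16 on the log2 scale. Gab1 kept its call in 4 of 8 fits that left out 1 sample and Plcg2 in 0 of 8. The adjusted p in edgeR's test reached 0.0861 for Gab1 and 0.118 for Plcg2, both without Cnp-Cre Jab1fl/fl replicate 1. Of 6 alternatives with no sample left out, 5 kept the call of Gab1 and 3 that of Plcg2.

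Among 18 partners of the receptors and proteins of their turnover, 2 fell and 0 rose, where 2.46% of all genes fell and 5.19% rose, with a median log2 fold change of -0.46 beside 0.024 over all genes. Erbin, a scaffold protein that binds Erbb2, fell from 161.4 ± 16.3 to 68.4 ± 27.6 CPM, with a log2 fold change of -1.24 and an adjusted p of 0.0364. Itch, a ubiquitin ligase, fell from 95.9 ± 33.3 to 34.5 ± 17.7 CPM, with a log2 fold change of -1.47 and an adjusted p of 0.0431 in edgeR's test (SD, n = 4 each). Each kept its call in 1 of 8 fits that left out 1 sample, with adjusted p of up to 0.0997 for Erbin without Cnp-Cre Jab1fl/fl replicate 3 and 0.108 for Itch without replicate 4. Of 6 alternatives with no sample left out, 4 kept the call of Erbin and 3 that of Itch.

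Of 12 other receptor tyrosine kinases of the lineage 11 were tested, of which 2 fell and 1 rose in Cnp-Cre Jab1fl/fl against WT, beside the same 2.46% and 5.19% of all genes, with a median log2 fold change of -0.72. Tyro3, a receptor of the TAM family, fell from 203.5 ± 94.8 to 41.3 ± 34.0 CPM, with a log2 fold change of -2.3 and an adjusted p of 0.0333. Fgfr2, a fibroblast growth factor receptor of oligodendrocytes, fell from 365.3 ± 140.1 to 126.6 ± 62.8 CPM, with a log2 fold change of -1.53 and an adjusted p of 0.0433. Igf1r, the receptor of insulin-like growth factor 1, rose from 49.9 ± 13.6 to 156.9 ± 65.2 CPM, with a log2 fold change of 1.65 and an adjusted p of 0.0294 in edgeR's test (SD, n = 4 each). Leaving out 1 sample kept the call of Tyro3 in 3 of 8 fits and those of Fgfr2 and Igf1r in 1 of 8 each. The adjusted p in edgeR's test reached 0.0882 for Tyro3 without WT replicate 3 and 0.115 for Fgfr2 without Cnp-Cre Jab1fl/fl replicate 3. For Igf1r it reached 0.0836 without WT replicate 5. Of 6 alternatives with no sample left out, 4 kept the call of Tyro3, 3 that of Fgfr2 and 4 that of Igf1r.

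In double mutants, 0 genes of these 5 lists passed the threshold of edgeR's test against WT, where 0.192% of all genes did, and 0 passed it against Cnp-Cre Jab1fl/fl, where 0.0% of all genes did. At an unadjusted p under 0.05, at most 3 genes of any list passed against WT and at most 1 against Cnp-Cre Jab1fl/fl. DESeq2 called Araf, a kinase of the MAP kinase cascade named after its values were seen, and Bace2 against WT, limma-voom called Bace2, and neither called a gene of the lists between the mutants. Erbin was at 72.0 ± 59.1 CPM, Gab1 at 111.9 ± 44.6 CPM, Tyro3 at 96.9 ± 71.3 CPM, Fgfr2 at 218.9 ± 116.3 CPM and Igf1r at 95.9 ± 46.7 CPM in double mutants (SD, n = 4), each between the means of the other genotypes.

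The genes whose profile over the 12 samples was most like that of Erbb3 were sought among 10447 genes whose average reached 10 CPM, by the root mean square difference of centered log2(CPM + 1) values. The closest were Prrg1 (0.426), Sv2a (0.437), Abca2 (0.44), Klhl4 (0.457) and Ermp1 (0.466), against a median of 1.39 over the genes ranked. Abca2, a lipid transporter abundant in oligodendrocytes, was at 539.2 ± 397.6 CPM in WT, 93.0 ± 22.9 CPM in Cnp-Cre Jab1fl/fl and 198.8 ± 156.9 CPM in double mutants. Sv2a, a glycoprotein known from synaptic vesicles, was at 160.6 ± 68.3, 26.8 ± 7.91 and 37.1 ± 23.2 CPM, and Prrg1 at 22.3 ± 5.54, 2.84 ± 1.52 and 6.67 ± 3.28 CPM (SD, n = 4 each). Erbb4 stood at place 345 with 0.847. These genes were ranked on the values that chose the family, and their likeness is a description.

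The members were placed on GRCm38 through GENCODE release M21. Erbb3 lies on chromosome 10 (128567523 to 128589652, minus strand) with 28 exons in its longest transcript, and Erbb4 on chromosome 1 (68032186 to 69108059, minus strand) with 27 exons. Egfr and Erbb2 lie apart on chromosome 11, at 16752203 to 16918158 and 98412470 to 98437716 on the plus strand, with 28 and 27 exons. Nrg1 lies on chromosome 8 (31814551 to 32884029), Nrg2 on 18 (36017652 to 36197380), Nrg3 on 14 (38368952 to 39473088) and Nrg4 on 9 (55220222 to 55326844), each on the minus strand. Counts covered all exons of a gene, so the isoforms of the neuregulins were not separated.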

How the data were processed

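RNA-Seq was performed on 12 samples of sorted oligodendrocytes, each from 2 brains. Per the labels, the authors used Trimmomatic 0.32 for trimming, STAR 2.5.3a for alignment to GRCm38 and featureCounts for counting, and deposited the raw counts of each gene symbol with no normalization. Genotypes and replicate numbers came from the labels. Here, CPM were computed with TMM factors from all 12 samples and RPKM with the union of exons of GENCODE M21. The paper assigned its reads with a later GENCODE release. Each comparison was fitted on the 8 samples involved with edgeR 4.0.16 (quasi-likelihood test, R 4.3.3), over the 17716 genes that reached 1 CPM in 4 or more samples. P-values were adjusted after Benjamini and Hochberg, and 0.05 was the threshold. Standard errors were derived from the F statistic. Single values were compared by exact permutation tests. The fits were tested on simulated data with known fold changes. Every simulated gene had the same spread between samples, so the check does not cover the spread of single members. DESeq2 1.42.0, limma 3.58.1 (voom with quality weights), RLE factors, no filter, all 12 samples, a replicate block and leaving out each sample were alternatives.

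The members and lists were chosen with earlier results of these data known. All 8 members, Cops5, Cdkn1a, the called genes of each pathway list (up to 5) and the 5 genes most like Erbb3 were named by rule. The samples are separate pools of animals. Samples with the same number in different genotypes were not paired, as their deviations from the group means had correlations from -0.188 to 0.0833. Between samples of a genotype, counts differed by more than counting noise, which does not cover noise from amplification.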

Additional observations from a re-analysis of the deposited data

Results flagged for a closer look

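Of 48 groups of 4 samples checked for a sample far from the others, by the gap to its nearest neighbor as a share of the range, 11 were marked. Chance marks about 1 in 20 where values are continuous, which does not hold for Nrg3 and Nrg4, since any sample with counts is marked when the others are at 0. Among the members, Nrg2 was far higher in double mutant replicate 1, at 4.89 CPM, than in the other double mutants. Nrg3 was set apart in WT replicate 5 at 0.257 CPM, in Cnp-Cre Jab1fl/fl replicate 2 at 0.591 CPM and in double mutant replicate 2 at 0.0713 CPM, where the other samples of the genotype held 0 or 1 counts. Nrg4 was set apart in Cnp-Cre Jab1fl/fl replicate 3 at 0.648 CPM, with 0 counts in the other 3 samples. Among the summed markers, mature oligodendrocyte markers were highest in WT replicate 5 at 105683.1 CPM, and microglial markers in double mutant replicate 3 at 16060.9 CPM. Premyelinating markers were at 987.1 CPM in Cnp-Cre Jab1fl/fl replicate 1 and at 389.9 CPM in double mutant replicate 5, which was low. Neuron markers were at 757.0 CPM in Cnp-Cre Jab1fl/fl replicate 2, the sample of that genotype with the most Nrg1 and Nrg3, though over 12 samples Nrg1 had an r of -0.25 with neuron markers (p = 0.581, exact permutation within genotypes), and mural markers were at 458.7 CPM in WT replicate 3.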

How the results depend on the processing

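Erbb4 in Cnp-Cre Jab1fl/fl against WT, the 1 call among the members tested, was lost in 10 of 14 alternatives and kept its direction in all of them. In Cnp-Cre Jab1fl/fl against WT, 1354 genes passed, against 2689 by DESeq2. With 1 sample left out the number ran from 678 (without WT replicate 5) to 1863 (without Cnp-Cre Jab1fl/fl replicate 2). Erbb3, which chose the family, is not counted among the members here. Erbb4 kept its call by DESeq2, with an adjusted p of 0.00288, and in edgeR's test with RLE factors, with 0.0427. The call on Erbb4 was lost without the filter, with all 12 samples and by limma-voom, and was kept in 2 of 8 fits with 1 sample left out. In double mutants against WT, 34 genes passed, against 862 by DESeq2, 21 without the filter and 164 with all 12 samples. With 1 sample left out the number ran from 1 (without double mutant replicate 2) to 274 (without double mutant replicate 1). No member tested passed in any of these fits. Between the mutants, 0 genes passed in edgeR's test (885 at an unadjusted p under 0.05), against 87 by DESeq2, 1 by limma-voom and 0 to 2 with 1 sample left out. Erbb2 in Cnp-Cre Jab1fl/fl against WT turned to 0.17 by limma-voom. With 1 sample left out, the log2 fold change ranged from -0.49 to 0.3 for Erbb2 and from -0.78 to 0.051 for Nrg2 in Cnp-Cre Jab1fl/fl against WT (both above 0 without WT replicate 3), from -0.63 to 0.14 for Erbb2 in double mutants against WT, and from -0.044 to 0.69 for Egfr and -0.35 to 0.1 for Erbb2 between the mutants. The cause was not tested. Of 70 counts over pathway lists in Cnp-Cre Jab1fl/fl against WT, 36 moved by over 1.5 times.

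With the replicate number as a block, 79 genes passed in Cnp-Cre Jab1fl/fl against WT, Erbb4 not among them, and 8 genes in double mutants against WT. Erbb2 in the first comparison turned to 0.1. The numbers did not pair the samples, so this is not read as a weaker effect.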
